A study of Drosophila melanogaster with 6 samples.

Results

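The Jonah and trypsin genes of *Drosophila melanogaster* encode digestive serine endopeptidases. The 31 genes described here were taken by a rule on their symbols from the 17489 genes counted: 16 Jonah genes, whose symbol begins with Jon and a digit, 11 trypsin genes, whose symbol ends in Try, and *yip7*, *Ser6*, *Ser8* and *Ser12*. The counts came from 6 RNA-seq libraries made from heads of male flies with the genotype Gr5a:Pclc429>UAS-Rpl3-3XFLAG. In these flies the *Gr5a* driver, which is active in sugar-sensing taste neurons, expresses a FLAG-tagged ribosomal protein, and all of them carry the c429 mutation of *Pcl* (Polycomblike), an accessory subunit of a Polycomb repressive complex. Males were housed 35 to a vial and kept from day 5 to day 12 of age, that is for 7 days, on a control diet with 5% sucrose or a sugar diet with 30% sucrose. Each diet had 3 biological replicates of 300 heads. Flies with an intact *Pcl* were not analysed here, so the question addressed is how the protease transcripts differed between diets within the mutant genotype.

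Serine endopeptidases of the trypsin fold cut peptide bonds with a catalytic triad of histidine, aspartate and serine. Trypsins cut after lysine and arginine. In flies the trypsins and the Jonah proteases are made by enterocytes of the midgut as inactive precursors, are secreted into the gut lumen and are activated there by removal of a propeptide. The Jonah genes were first known as a family expressed in the midgut and are named by the cytological position of each gene.

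The libraries held 12617127 to 24076315 sense counts. Control diet replicate 1 was the deepest. The labels give the source as *Gr5a* sensory neurons and do not say whether the RNA bound to tagged ribosomes or the total RNA of the lysate was sequenced. The markers of sweet-sensing neurons were too sparse to bear out that label. The 8 sweet receptor genes together reached 18.0 to 43.3 normalized counts on the control diet and 7.44 to 41.6 on the sugar diet. *Gr64b*, *Gr64c*, *Gr64d* and *Gr64e* were at 0 in every library. Reads that match several genes are set aside in this type of table, and whether this touched the *Gr64* genes was not tested. The study reports *Gr5a*, *Gr64f* and *Gr64a* as enriched in its tagged-ribosome fraction over input. No comparison with input was made here. Normalized counts are counts divided by the DESeq2 size factor of the library. The 10 photoreceptor markers summed to 663310 to 775360 normalized counts on the control diet and 527920 to 669290 on the sugar diet. The libraries are therefore called head libraries below. In such bulk libraries, more cells of a type and more RNA per cell cannot be told apart.

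Most of the proteases lie in tight groups on the chromosomes. With neighbours up to 50000 bases apart taken as 1 group, 26 of the 31 genes fell into 6 groups, and 25 genes consist of a single exon. All 11 trypsin genes lie within 20.7 kb of chromosome 2R (positions 11336840 to 11357537, dm6 coordinates from the Ensembl annotation). *yip7*, *Jon65Aiv*, *Jon65Aiii*, *Jon65Aii* and *Jon65Ai* lie within 19.23 kb of chromosome 3L (6035216 to 6054443). The *Jon25B* genes on 2L (4949941 to 4955144), the *Jon99C* genes on 3R (29922216 to 29926189), the *Jon99F* genes on 3R (30487016 to 30489895) and the *Jon66C* genes on 3L (8391540 to 8393649) form the smaller groups.

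Protease transcripts were scarce on the control diet and were present in every sugar diet library. Together the 31 genes received 480, 48 and 45 counts in control replicates 1, 2 and 3, whereas sugar replicates 1, 2 and 3 gave 2105, 3939 and 10487 counts. As CPM, that is sense counts scaled by the sense total of the library, this was 19.9, 3.80 and 2.56 on the control diet, against 110.0, 227 and 628 on the sugar diet. The mean CPM was 8.77 ± 9.69 (SD, n = 3) for the control libraries and 322 ± 272 (SD, n = 3) for the sugar libraries. The groups did not overlap: in normalized counts, the lowest sugar diet library lay 5.22-fold above the highest control diet library. The spread within a diet was as large: the highest library lay 8.47-fold above the lowest on the control diet and 5.19-fold above the lowest on the sugar diet. The ratio of the summed means was 32.1, and it was 90.2 without control diet replicate 1 and 17.2 without sugar diet replicate 3.

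Of the 31 proteases, 28 had a count in some library. A value above 3 counts was taken as detected. On the control diet 15, 3 and 6 genes were detected in replicates 1, 2 and 3, and only *Jon65Aiv* and *alphaTry* were detected in all of them. On the sugar diet 21, 21 and 25 genes were detected, 20 of them in every library. *Ser12*, *gammaTry* and *deltaTry* were at 0 in all 6 libraries. *gammaTry* and *deltaTry* are near-identical copies with a transcribed length of 810 bases each, and reads that match more than 1 place are counted for no gene in this type of table. Their 0 therefore cannot be told apart from reads that were set aside.

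**Figure D1:**
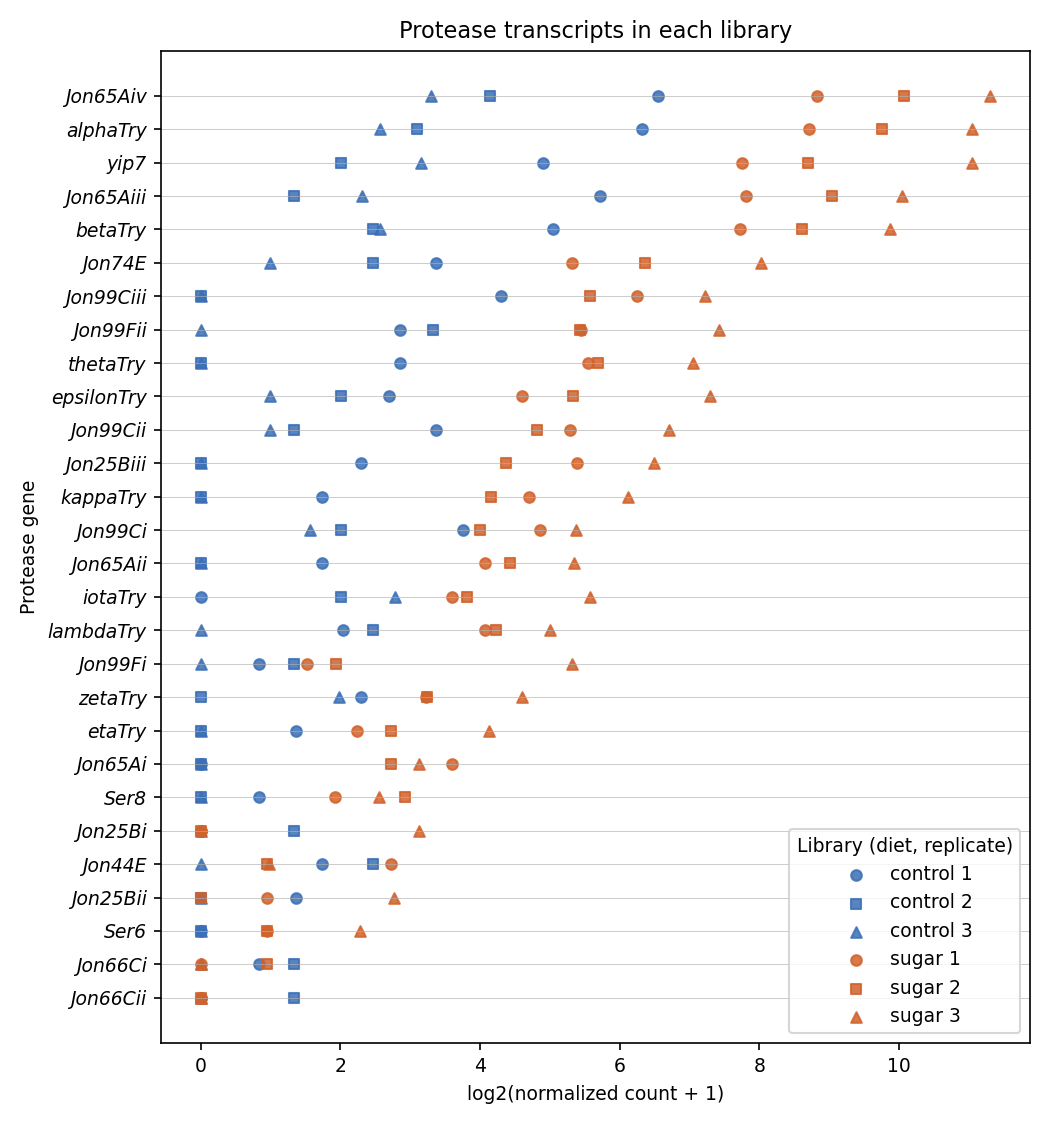
Level of each protease gene in each library, as log2(normalized count + 1) on the horizontal axis, with blue points for the 3 control diet libraries, orange points for the 3 sugar diet libraries and the symbol for the replicate number. The genes are ordered by their mean on the sugar diet, and the 3 genes at 0 everywhere are left out. For 23 genes all orange points lie to the right of all blue points.

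For most of these genes the diet difference was large and in 1 direction. Of the 25 proteases that received a q (the Benjamini-Hochberg adjusted p of the DESeq2 Wald test over all genes), 18 were higher on the sugar diet at q under 0.1, 7 did not pass and 0 were lower. No protease was lower at an unadjusted p under 0.05 (0 genes) or by edgeR (0 genes, against 0.34% of all genes it tested). The 18 are 72% of those tested, while over all 14254 genes tested 14.0% were higher and 0.54% were lower. The 77 genes lower over the whole table became 12 to 496 with 1 library left out, with 12 without sugar diet replicate 3, 496 without sugar diet replicate 1 and 212 without control diet replicate 3. Among the 18 the log2 fold change ran from 2.19 for *Jon99Ci* to 6.08 for *yip7*, with a median of 4.85. Over the 28 fitted proteases the median log2 fold change was 3.97, against 0.01 over all 16134 fitted genes. For a second median, the 12 genes whose control libraries were all at or under 3 counts were set to their bound. Those whose sugar diet mean did not exceed the normalized level of 3 control counts were set to 0 instead. This median was 3.09. In 23 proteases every sugar diet library lay above every control diet library, against 18.1% of all fitted genes, and all 18 called genes were among them. The quasi-likelihood test of edgeR, which tested 17 of the proteases, called 15 higher (13.6% of all genes it tested), 14 of them shared with DESeq2. Without sugar diet replicate 3 DESeq2 called 14 proteases higher (9.48% of all genes), and without control diet replicate 1 it called 18 (12.4%). At q under 0.05 it called 16 (12.9%).

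**Figure D2:**
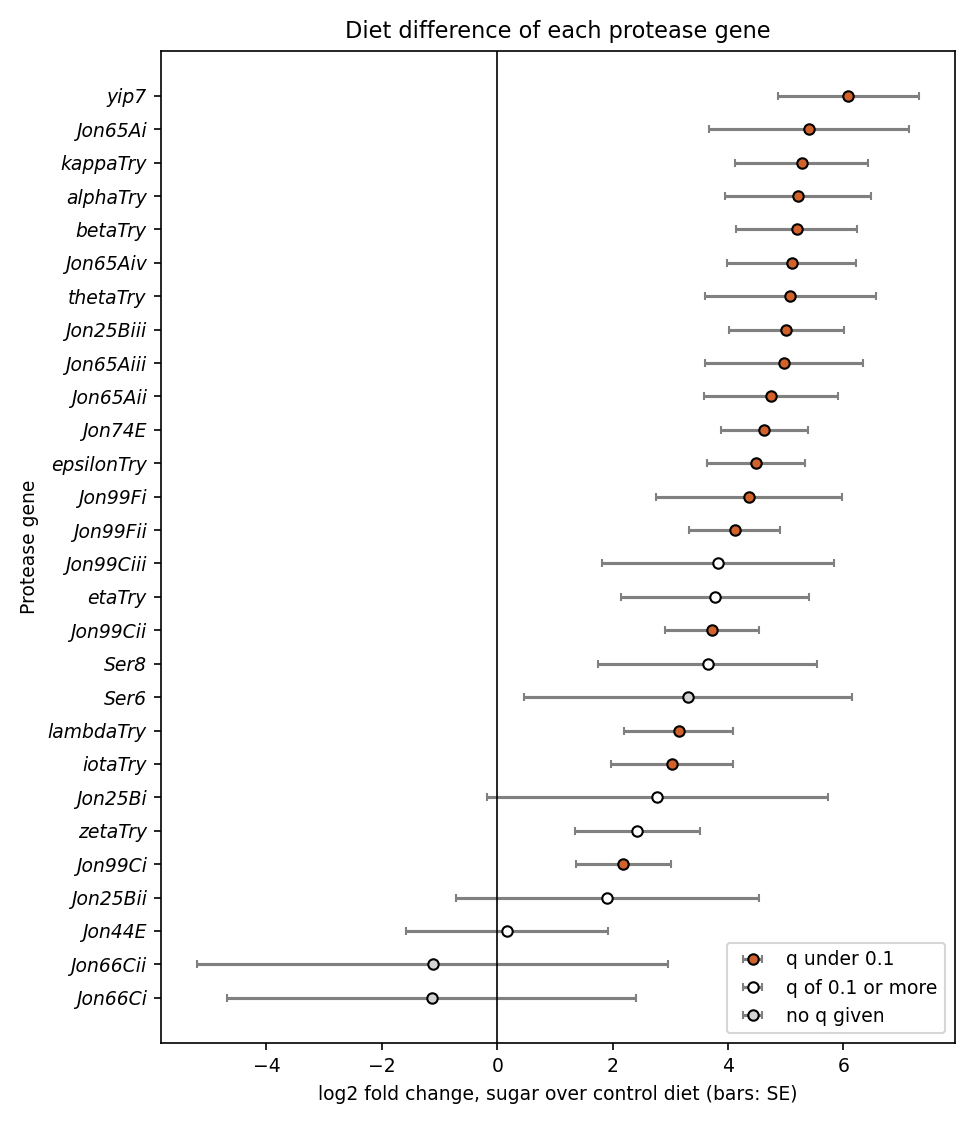
Log2 fold change of each protease gene, sugar diet over control diet, from the DESeq2 fit to 3 libraries per diet, with bars for the standard error. Filled orange points passed q under 0.1, white points did not, and grey points received no q. The 18 orange points lie between 2.19 and 6.08, and all points below 0 are grey.

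The most abundant gene was *Jon65Aiv* (FBgn0250815; 3L, 6039155 to 6040135, a Jonah protease). The 3 control diet libraries had 92.2, 16.6 and 8.86 normalized counts in order of replicate number, and the sugar diet libraries had 454.6, 1080 and 2535. Values of other genes below are given in the same order. Every sugar diet library was higher, and control diet replicate 1 stood above the other control libraries. The log2 fold change was 5.10 ± 1.12 (SE; q = 7.6e-05, DESeq2), with 6.75 without control diet replicate 1 and 4.29 without sugar diet replicate 3.

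*yip7* (FBgn0040060; 3L, 6035216 to 6036175), a serine protease found by its binding to the Yippee protein, lies next to *Jon65Aiv*. It had 28.9, 3.02 and 7.87 normalized counts on the control diet, against 214.8, 412.5 and 2108 on the sugar diet. Sugar diet replicate 3 was far above the other sugar diet libraries, which themselves lay above all control libraries. The log2 fold change was 6.08 ± 1.22 (SE; q = 1.1e-05, DESeq2), with 4.53 without sugar diet replicate 3 (q = 0.00056) and 7.35 without control diet replicate 1. *Jon65Aiii* (FBgn0035665; 3L, 6050757 to 6051690) had 51.6, 1.51 and 3.94 normalized counts on the control diet, against 224, 524 and 1057 on the sugar diet. Its control libraries spread widest in ratio among the 5 most abundant genes, and the groups did not overlap. Its log2 fold change was 4.97 ± 1.36 (SE; q = 0.0028, DESeq2), and 7.72 without control diet replicate 1. The last pair of genes in this stretch of 3L was sparse. *Jon65Aii* had 2.34, 0 and 0 normalized counts on the control diet, against 15.8, 20.6 and 39.7 on the sugar diet. With 3 control counts against 80 sugar diet counts, its ratio was 24.8 with a 95% counting interval of 8.20 to 123, and it passed the test (log2 fold change 4.74; DESeq2 q = 0.00056), with 6.82 without control diet replicate 1, which held all 3 control counts. *Jon65Ai* was at 0 in every control library and had 11.2, 5.62 and 7.75 normalized counts on the sugar diet. Against a floor of 3 counts per control library it was at least 2.49-fold higher, and its call (DESeq2 q = 0.015) was lost without sugar diet replicate 1 (q = 0.15). All 5 genes of this stretch were called higher.

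Among the trypsins *alphaTry* and *betaTry* carried most of the counts. *alphaTry* (FBgn0003863; 2R, 11344260 to 11345119) had 78.9, 7.56 and 4.92 normalized counts on the control diet, against 416.5, 863.4 and 2124 on the sugar diet. *betaTry* (FBgn0010357; 2R, 11346325 to 11347395) had 32.0, 4.54 and 4.92 on the control diet, against 211, 390.0 and 938.5 on the sugar diet. Both were lowest in sugar diet replicate 1 and highest in replicate 3 within that diet, and both had control diet replicate 1 as the highest control library. The log2 fold change was 5.21 ± 1.26 for *alphaTry* (SE; q = 0.00047, DESeq2) and 5.19 ± 1.04 for *betaTry* (SE; q = 1.1e-05, DESeq2). Without control diet replicate 1 these were 7.52 and 6.75, and without sugar diet replicate 3 they were 4.39 and 4.42.

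A second tier of trypsins was expressed at lower levels. *thetaTry* had 6.25, 0 and 0 normalized counts on the control diet, against 45.6, 50.6 and 131.7 on the sugar diet. *epsilonTry* had 5.47, 3.02 and 0.98 on the control diet, against 23.2, 39.4 and 155.9 on the sugar diet. For both the groups were separate, and the log2 fold changes were 5.08 ± 1.48 for *thetaTry* (SE; q = 0.0058, DESeq2) and 4.48 ± 0.84 for *epsilonTry* (SE; q = 2.2e-06, DESeq2). The call for *thetaTry* was lost without sugar diet replicate 2 (q = 0.13), and its log2 fold change was 8.40 without control diet replicate 1, which held all of its control counts. That of *epsilonTry* was 3.27 without sugar diet replicate 3 and 5.28 without control diet replicate 1. *kappaTry*, *iotaTry* and *lambdaTry* were also called higher, with mean sugar diet levels of 36.9 ± 27.9, 23.6 ± 19.9 and 21.5 ± 8.25 normalized counts (SD, n = 3). For *kappaTry*, 3 control counts stood against 116 sugar diet counts, a ratio of 36.0 with a counting interval of 12.0 to 177, and the log2 fold change of 5.28 became 7.36 without control diet replicate 1 and 4.49 without sugar diet replicate 3. The log2 fold change of *iotaTry* was 3.03 ± 1.05 (SE; q = 0.032, DESeq2), with q = 0.17 without control diet replicate 1, 0.12 without control diet replicate 2, 0.11 without sugar diet replicate 2, 0.69 without sugar diet replicate 3 and 0.113 by edgeR. That of *lambdaTry* was 3.15 ± 0.95 (SE; q = 0.0082, DESeq2), with q = 0.13 without sugar diet replicate 3.

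The remaining trypsins did not pass. *zetaTry* had 3.91, 0 and 2.95 normalized counts on the control diet, against 8.37, 8.44 and 23.2 on the sugar diet (DESeq2 q = 0.16). *etaTry* had 1.56, 0 and 0 on the control diet, against 3.72, 5.62 and 16.5 on the sugar diet (DESeq2 q = 0.13; 0.076 without control diet replicate 1). In both genes all sugar diet libraries were above all control libraries, at counts too low for a firm comparison. Of the 11 trypsins, 7 were called higher, 2 were not called and 2 had no count.

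*Jon74E* (FBgn0023197; 3L, 17548077 to 17549127), a Jonah gene with no family neighbour, had 9.37, 4.54 and 0.98 normalized counts on the control diet, against 39.0, 81.6 and 260.5 on the sugar diet. Its groups did not overlap, and its log2 fold change of 4.63 ± 0.75 had the lowest q of all proteases (SE; q = 1.7e-08, DESeq2). It was 3.56 without sugar diet replicate 3, 5.64 without control diet replicate 1 and 3.78 with unstranded counts. Reads on the opposite strand of *Jon74E* numbered 7 to 30 in every library and were not counted to it.

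The *Jon99F* and *Jon99C* genes on 3R were less abundant. *Jon99Fii* had 6.25, 9.07 and 0 normalized counts on the control diet, against 42.8, 42.2 and 170.5 on the sugar diet (log2 fold change 4.11 ± 0.78, SE; q = 3.1e-06, DESeq2), which was 3.11 without sugar diet replicate 3 and 4.70 without control diet replicate 2. Its neighbour *Jon99Fi* had 0.78, 1.51 and 0 on the control diet, against 1.86, 2.81 and 38.7 on the sugar diet, so that nearly all of its counts came from sugar diet replicate 3. Its call (DESeq2 q = 0.053) was lost without that library, with a log2 fold change of 1.72, and also without any 1 of the control libraries (q = 0.204, 0.103 and 0.204 without replicates 1, 2 and 3). *Jon99Cii* had 9.37, 1.51 and 0.98 on the control diet, against 38.1, 27.2 and 103.6 on the sugar diet (log2 fold change 3.72 ± 0.82, SE; q = 7.6e-05, DESeq2), which was 5.54 without control diet replicate 1 and 2.95 without sugar diet replicate 3. *Jon99Ciii* had 18.7, 0 and 0 on the control diet, against 75.3, 46.9 and 148.2 on the sugar diet. Although its sugar diet libraries all lay above the control libraries, this gene did not pass (log2 fold change 3.83 ± 2.01, SE; q = 0.30, DESeq2). It passed by edgeR (q = 0.060) and without control diet replicate 1, which held all of its control counts (log2 fold change 8.65; q = 1.4e-06). *Jon99Ci* had 12.5, 3.02 and 1.97 on the control diet, against 27.9, 15 and 40.7 on the sugar diet. Its log2 fold change was 2.19 ± 0.82 (SE; q = 0.057, DESeq2). That call was lost by edgeR (q = 0.12), without control diet replicate 2 (q = 0.21) or 3 (q = 0.23), and without sugar diet replicate 1 (q = 0.17) or 3 (q = 0.48), while the log2 fold change was 3.52 without control diet replicate 1.

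Of the *Jon25B* genes only *Jon25Biii* was called. It had 3.91, 0 and 0 normalized counts on the control diet, against 40.9, 19.7 and 89.1 on the sugar diet (log2 fold change 5.01 ± 1.00, SE; q = 9.0e-06, DESeq2), and 7.79 was the log2 fold change without control diet replicate 1. *Jon25Bi* had 0, 1.51 and 0 on the control diet, against 0, 0 and 7.75 on the sugar diet (DESeq2 q = 0.80). *Jon25Bii* had 1.56, 0 and 0 on the control diet, against 0.93, 0 and 5.81 on the sugar diet (DESeq2 q = 0.88). In these 2 genes the groups overlapped, and a difference was not detectable at this depth.

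*Jon44E*, on 2R, was the one tested protease near parity, at 2.34, 4.54 and 0 normalized counts for the control diet, against 5.58, 0.94 and 0.97 on the sugar diet. Its log2 fold change was 0.17 ± 1.76 (SE; q = 0.99, DESeq2), with a 95% interval from -3.27 to 3.61, so a large difference in either direction was within its error. The *Jon66C* genes had too few counts for a q, with 2 control counts and 1 sugar diet count for *Jon66Ci* and 1 control count for *Jon66Cii*. *Ser8* had 0.78, 0 and 0 normalized counts on the control diet, against 2.79, 6.56 and 4.84 on the sugar diet (DESeq2 q = 0.29). *Ser6*, on X, was at 0 on the control diet and had 0.93, 0.94 and 3.87 on the sugar diet, and it received no q. *Ser6*, *Ser8* and *Ser12* thus stood near or at the limit of detection.

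Set per kilobase of exon, which allows levels to be compared between genes, the order on the sugar diet was *Jon65Aiv* with a mean of 1500 normalized counts per kilobase, *alphaTry* with 1319, *yip7* with 1008, *Jon65Aiii* with 687.5 and *betaTry* with 479. The next gene, *Jon74E*, had 141. The sugar diet libraries differed widely, with an SD of 1181 normalized counts per kilobase for *Jon65Aiv*. This spread was partly shared by the genes, so it does not measure the error of their order. In normalized counts *Jon65Aiv* lay above *alphaTry* in all 3 sugar diet libraries. *yip7* lay below *Jon65Aiii* in sugar diet replicates 1 and 2 (214.8 against 224 and 412.5 against 524). It lay above *Jon65Aiii* in replicate 3 (2108 against 1057). Together these 5 genes took 77.7%, 88.5% and 86.3% of the protease counts in sugar diet replicates 1, 2 and 3. In control diet replicate 1 they took 75.6% of 480 counts, with a 95% Wilson interval of 71.6 to 79.3%.

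The shares of the protease counts taken by each gene were compared between control diet replicate 1 and the sugar diet libraries. *alphaTry* took 21.0% of the protease counts in control diet replicate 1 and 21.3%, 23.4% and 20.9% in sugar diet replicates 1, 2 and 3. *Jon65Aiv* took 24.6% in control diet replicate 1 and 23.2%, 29.2% and 24.96% in the sugar diet libraries. Other genes departed further from 1 library to another. *yip7* took 7.71% in control diet replicate 1, 11.0% and 11.2% in sugar diet replicates 1 and 2, and 20.7% in sugar diet replicate 3. *Jon99Ciii* took 5.00% (interval 3.38 to 7.33%) in control diet replicate 1, against 3.85%, 1.27% and 1.46% in the sugar diet libraries. *Jon99Ci* took 3.33% (2.06 to 5.35%) against 1.43%, 0.41% and 0.40%. The share of the 5 leading genes was likewise lower in control diet replicate 1 than in sugar diet replicates 2 and 3, with intervals that did not overlap. Across the 28 proteases with a count, levels had Spearman correlations of 0.935 to 0.962 between sugar diet libraries and of 0.857 to 0.907 between control diet replicate 1 and each sugar diet library, and of 0.395 to 0.672 between control diet replicates 2 and 3 and the sugar diet libraries. These correlations run across genes, which are not independent replicates, and the points share libraries. Control diet replicates 2 and 3 held only 48 and 45 protease counts, and their make-up is known only roughly. The 5 leading genes took 45.8% of counts in replicate 2, with an interval of 32.6 to 59.7%, and 68.9% in replicate 3, with an interval of 54.3 to 80.5%.

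**Figure D3:**
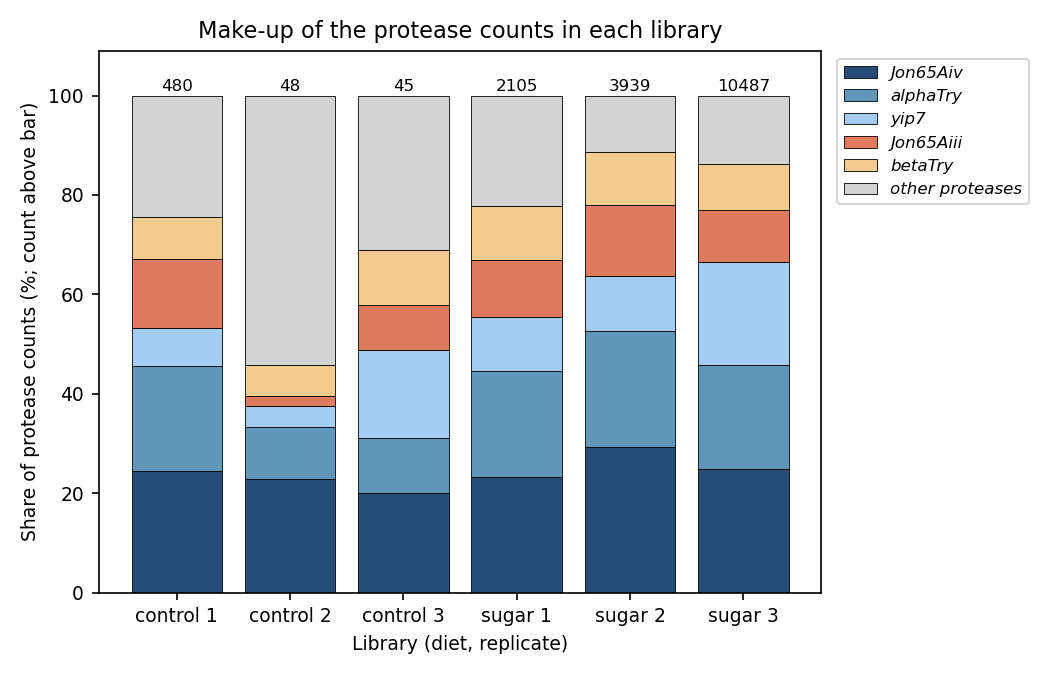
Share of the protease counts taken by each of the 5 leading genes and by all other proteases, in percent, for each library, with the number of protease counts above each bar. The 5 leading genes took 75.6% in control diet replicate 1 and 77.7%, 88.5% and 86.3% in the sugar diet libraries, whose totals run from 2105 to 10487 counts.

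The sugar diet libraries differed among themselves by more than counting error, and not by 1 common factor. Of the 18 called genes, 17 were highest in sugar diet replicate 3, and *Jon65Ai* was the exception. Of the 19 proteases with at least 30 counts over both libraries, 18 were higher in replicate 3 than in replicate 1 beyond their 95% counting interval. The ratio was 9.81 for *yip7*, 5.58 for *Jon65Aiv* and 1.97 for *Jon99Ciii*. Between replicates 2 and 1 the genes went different ways. *Jon65Aiv* was 2.38-fold higher in replicate 2 (interval 2.14 to 2.65), *Jon65Aiii* 2.34-fold, *alphaTry* 2.07-fold, *yip7* 1.92-fold and *betaTry* 1.85-fold. *Jon25Biii*, with a ratio of 0.48 (interval 0.27 to 0.83), and *Jon99Ciii*, with 0.62 (0.43 to 0.90), were lower. In all, 7 of 16 genes were above 1, 2 were below and 7 had an interval that held 1. These intervals cover counting error only, and they compare single libraries, not conditions.

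**Figure D4:**
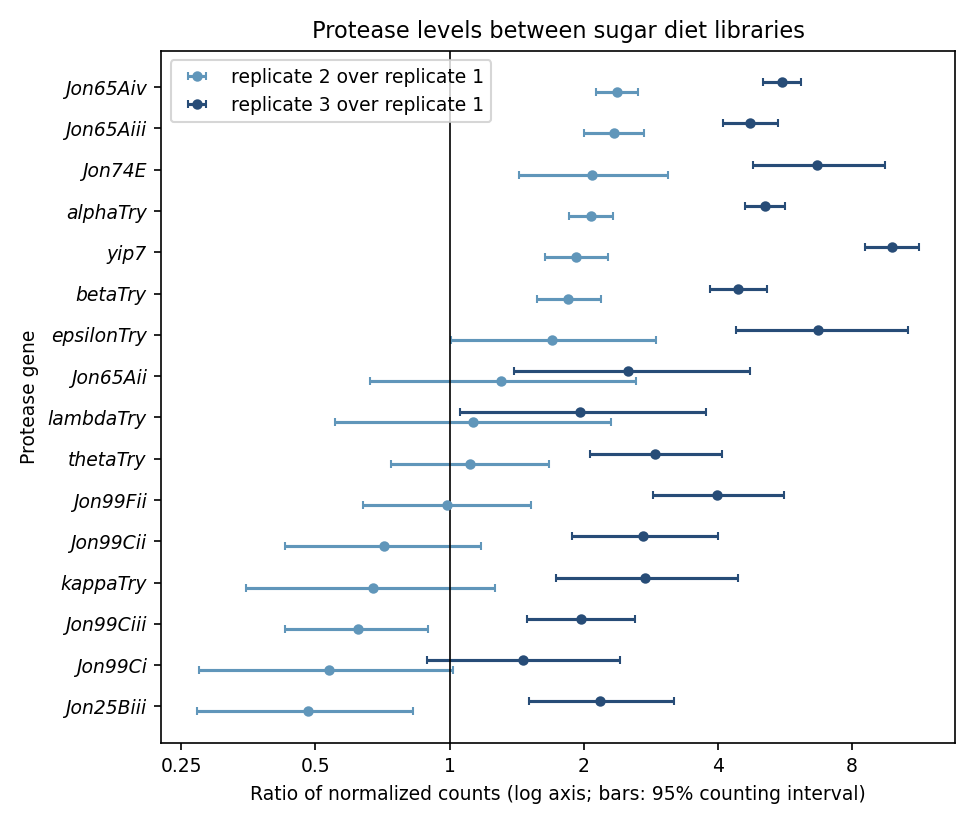
Ratio of normalized counts of sugar diet replicate 2 (light) and replicate 3 (dark) over replicate 1, on a log axis, for the 16 proteases with at least 30 counts in both pairs, with 95% counting intervals. In replicate 2 the ratios run from 0.48 to 2.38, and in replicate 3 all lie above 1.

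Control diet replicate 1 was the highest control library for 13 of the 18 called genes, and *Jon65Ai* was at 0 in all control libraries. Its protease sum was 375 normalized counts, against 72.6 and 44.3 in control diet replicates 2 and 3. This library was also the deepest, and normalized values were used for the comparison. Among genes with at least 30 counts over both libraries compared, *Jon65Aiv*, *alphaTry*, *yip7*, *Jon65Aiii* and *betaTry* were all higher in replicate 1 than in replicates 2 and 3 beyond counting error. The ratios ran from 3.67 to 34.1 and are known only roughly. The lowest, for *yip7* over replicate 3, had an interval of 1.68 to 9.12. The highest, for *Jon65Aiii* over replicate 2, set 66 counts against 1 and had an interval of 5.91 to 1367.

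Other secreted enzymes and gut proteins, listed by name, were examined beside the proteases. Of 32 such genes, 13 were higher on the sugar diet (40.6%, against 14.0% of all genes), 0 were lower (0 at an unadjusted p under 0.05 and 0 by edgeR) and 19 did not pass. Without sugar diet replicate 1, 11 were higher and 2 were lower, and without sugar diet replicate 3, 10 were higher. By edgeR 12 of the 20 it tested were higher. The 13 included 7 maltases, which split maltose and sucrose. *Mal-A1*, the most abundant of them, had 105, 46.9 and 29.5 normalized counts on the control diet, against 951, 323 and 1367 on the sugar diet (log2 fold change 3.86 ± 0.76, SE; q = 6.7e-06, DESeq2). All 7 maltases were lower in sugar diet replicate 2 than in replicate 1. The other called genes were the mannosidases *LManV* and *LManVI*, the lipase *mag* (magro), the lysozyme *LysE*, the sterol-binding protein gene *Npc2d* and *Peritrophin-15a*, which encodes a chitin-binding protein. Of these, *mag* was lower in sugar diet replicate 2 than in replicate 1 and the other 5 were higher there. The most abundant listed genes did not pass. *LManII*, a lysosomal-type mannosidase, had a log2 fold change of -0.19 ± 0.18 (SE; q = 0.76, DESeq2), and *Mal-B2* of -0.11 ± 0.13 (SE; q = 0.85). *tobi*, a glucosidase gene, and *Mal-A5* had log2 fold changes of 0.33 and -0.18 (q = 0.97 and 0.71). The amylase genes *Amy-p* and *Amy-d*, which are near-identical copies and therefore uncertain, had log2 fold changes of 0.43 and 0.08 (q = 0.93 and 0.99).

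Serine proteases outside these families, most of them with roles in immune signalling or development, were compared as a second list. Of 24 such genes, 21 were tested, 2 were higher (9.52%, against 14.0% of all genes) and 0 were lower (0 at an unadjusted p under 0.05 and 0 by edgeR). Their median log2 fold change was -0.02. The abundant members *teq*, *Corin*, *modSP*, which acts upstream in the Toll cascade, and *SPE*, which cleaves the Toll ligand Spätzle, had log2 fold changes of -0.19, -0.01, -0.06 and -0.26 and did not pass. The 2 that were higher were *Sems*, which encodes a seminal fluid protease and is also on the accessory gland list below, and *Phae2*. Without sugar diet replicate 1, 3 genes of this list were lower.

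Markers of organs that lie outside the head were examined in the same fit, in which 14.0% of all genes were higher and 0.54% lower. Of 7 midgut markers, 4 were higher on the sugar diet and 3 did not pass. *mex1*, a marker of enterocytes, had 2.34, 1.51 and 0 normalized counts on the control diet, against 19.5, 25.3 and 88.1 on the sugar diet (log2 fold change 5.07 ± 1.04, SE; q = 1.7e-05, DESeq2). *GATAe* and *cad*, which encode midgut transcription factors, had log2 fold changes of 4.40 ± 0.91 and 3.09 ± 0.53 (SE; q = 2.0e-05 and 1.2e-07, DESeq2). The study reports both as *Pcl* targets enriched in *Gr5a* neurons over input, so in its account they are not specific to the midgut. It also reports both as lower on the sugar diet in flies with an intact *Pcl*, an effect that the *Pcl* mutation reversed. Which cells their transcripts came from in these libraries was not tested. The midgut list summed to 869 to 1013 normalized counts on the control diet and 1045 to 1369 on the sugar diet, most of it from *Myo31DF*, which did not pass, and none of the list was at 0 throughout a diet. Of 15 tested testis markers, 11 were higher, and the list summed to 139 to 165 normalized counts on the control diet and 2811 to 8183 on the sugar diet, with no marker at 0 throughout a diet. Of 17 accessory gland markers, 16 were higher, with sums of 3341 to 4702 and 4606 to 8191, most of the control sum being *Est-6*, and *Acp26Aa* was at 0 in every control library. Of 5 Malpighian tubule markers, *Uro* and *Smvt* were higher by DESeq2 and 0 by edgeR, with sums of 1845 to 2103 on the control diet and 1786 to 2031 on the sugar diet. In control diet replicates 1, 2 and 3 the proteases summed to 375, 72.6 and 44.3 normalized counts. There the testis list was at 155, 139 and 165 and the accessory gland list at 4702, 4444 and 3341. The gut enzyme list was at 10118, 9409 and 6762, and the midgut list at 917, 1013 and 869. *Est-6* (4636, 4428 and 3325) and *LManII* (5643, 5539 and 4327) made up most of the accessory gland and gut enzyme sums, so these hide the sparser genes. Among the called gut enzymes, *Mal-A2* was highest in control diet replicate 2 and *Npc2d* was at 0. The rest, such as *Mal-A6* (68.0, 18.1 and 16.7) and *LManVI* (38.3, 7.56 and 4.92), were highest in control diet replicate 1. In the midgut list *mex1*, *GATAe* (5.47, 3.02 and 0), *cad* (15.6, 9.07 and 12.8) and *Vha100-4* were highest in control diet replicate 1. *mex1* was near the limit of detection there. In the accessory gland list *Acp36DE* (22.7, 1.51 and 5.91), *Acp95EF* (12.5, 1.51 and 0), *Acp98AB* (10.9, 0 and 1.97) and *Est-6* were highest in that library. So were *Acp29AB*, *Acp53Ea*, *Acp54A1*, *Acp62F*, *Acp63F* and *Dup99B*, at low counts. The rest of these lists peaked elsewhere, apart from *Acp26Aa*. *Myo31DF*, *lab* (68.7, 95.3 and 65.0), *Acp33A*, *Acp76A* and *Sfp24F* were highest in control diet replicate 2. *Npc2e* (3.12, 1.51 and 5.91), *Acp26Ab*, *SP* and *Sems* were highest in control diet replicate 3. Among markers of the head, 0 of 10 photoreceptor genes passed (5 were lower at an unadjusted p under 0.05 and 0 passed by edgeR) and 0 of 5 neuron genes passed (1 was lower at an unadjusted p under 0.05 and 0 passed by edgeR). Of 6 flight muscle genes, *Strn-Mlck* was lower by DESeq2 (q = 0.091) and 0 by edgeR, with sums of 16763 to 21102 on the control diet and 13645 to 18367 on the sugar diet. Of 5 tested fat body genes, the yolk protein genes *Yp1*, *Yp2* and *Yp3* were lower. The list had sums of 162910 to 252050 and 126720 to 197320, most of it *apolpp*. *Lsp2*, which received no q, split the libraries within each diet. It had 10962, 10070 and 84.6 normalized counts on the control diet, against 10702, 49.7 and 38.7 on the sugar diet. *Yp1*, known from female fat body, had 117, 21747 and 2363 normalized counts on the control diet, against 44.6, 30.0 and 19.4 on the sugar diet, so that control diet replicate 2 stood apart. *Yp3* had 712, 14679 and 1753, against 678, 632 and 594. Without control diet replicate 2, in which the yolk protein genes were highest, DESeq2 called 15 proteases higher (13.7% of all genes). The part of tissue from outside the head in the diet difference of the proteases was not tested.

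**Figure D5:**
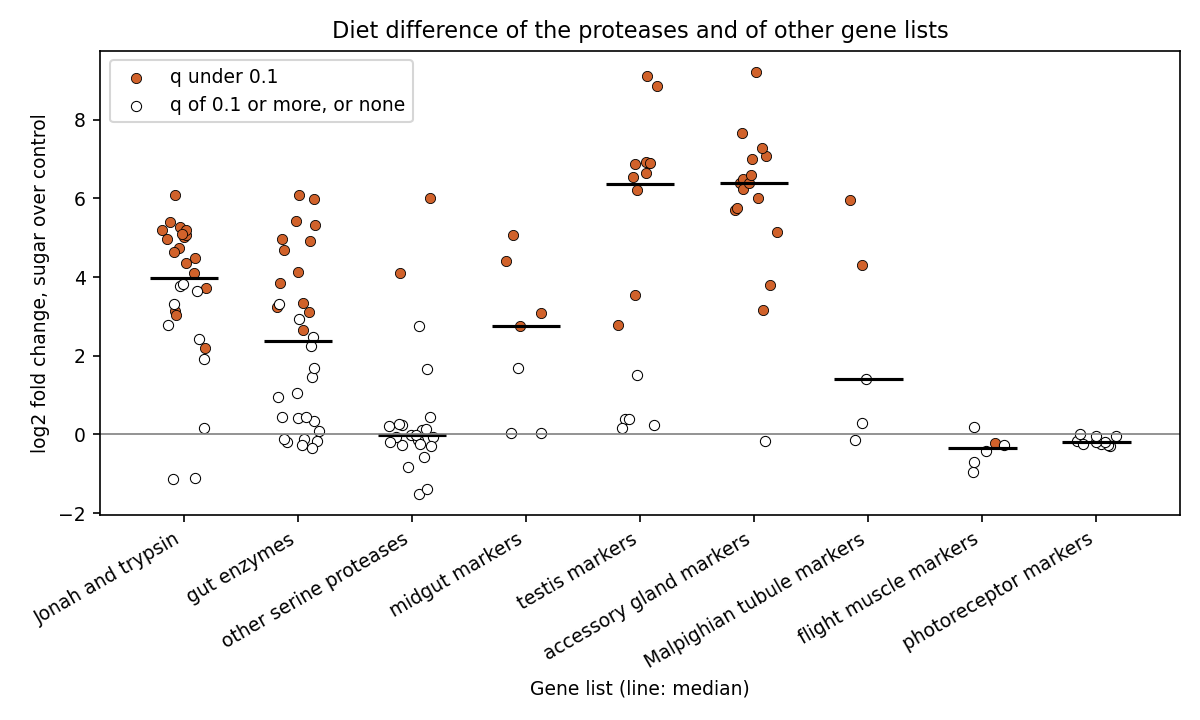
Log2 fold change, sugar diet over control diet, of each fitted gene of the proteases, of the gut enzyme and other serine protease lists and of tissue marker lists, with a line at the median of each list. Orange points passed q under 0.1 in DESeq2. The median is 3.97 for the proteases, 2.36 for the gut enzymes, -0.02 for the other serine proteases and 6.37 for the testis markers.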

How the data were processed

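Per the labels and the study's methods, RNA was ribosomal-RNA depleted and made into libraries with a kit for *Drosophila*, and reads with a quality under 30 were discarded. The submitters' processing notes name STAR, SAMtools 1.4, HTSeq, DESeq2 1.18.0 and the build BDGP6. The authors deposited unnormalized read counts for each gene, in the 4-column layout that STAR writes, in which reads that match several places or several genes are set apart. These and other reads assigned to no gene were 40.9 to 47.3% of each table, multi-mapped reads alone 14.5 to 18.5%, and they were left out. Removal of PCR duplicates is not given in the sources used here. The sense column, with 97.0 to 97.3% of stranded counts, was used for the 6 libraries, grouped by diet from the labels.

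Symbols were matched to 17215 of 17489 identifiers. The rule on symbols that gives the members, and the lists, were chosen with earlier results of these data known. Every member was named, and in other lists the most abundant genes and those against the majority. Further genes of those lists, such as *mex1*, *Uro*, *Smvt* and the called gut enzymes, were named after their values were seen. Sequences were not used here. Genes with at least 1 count were fitted with DESeq2 1.42.0 in R 4.3.3 (two-sided Wald test, Benjamini-Hochberg q under 0.1, no block), the study's tool and threshold. Same-numbered libraries share only a number. Alternatives were edgeR 4.0.16, TMM factors, a filter of 10 counts in 3 libraries, unstranded counts, q under 0.05, a replicate block and each library left out. Counting intervals (95%, exact for ratios and Wilson for shares, scipy 1.17.1) and the floor of 3 counts cover counting error only. The fits were tested on simulated data.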

Additional observations from a re-analysis of the deposited data

Results flagged for a closer look

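Counts on the strand opposite to *Jon65Aiv* lie outside the values compared in the report. They were 0 in all 3 control diet libraries and 4, 7 and 10 in sugar diet replicates 1, 2 and 3, so that the lowest sugar diet library, at 4 counts, stood above every control library. Over the 6 libraries they made up 0.475% of the stranded counts of this gene. It had 118, 11 and 9 sense counts on the control diet and 489, 1152 and 2617 on the sugar diet. At that share, the control diet sense counts are too few to expect opposite-strand counts. The 0 values therefore show no diet difference beyond that of the sense counts.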

How the results depend on the processing

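The count of proteases called, 18 of 25, stayed between 14 and 18 when each library was left out, and was 15 by edgeR, 16 with at least 10 counts in 3 libraries, 17 with unstranded counts, 16 at q under 0.05 and 14 without control diet replicate 1 and sugar diet replicate 3 together, a setting chosen after seeing the data. No setting called a protease lower. Over the 13 alternatives of the member fits, 293 values kept their direction and side of the threshold, 26 lost the call, 6 gained it and 5 changed sign. These belong to 3 genes that were not called and had fewer than 10 counts per diet. With 1 library left out, the log2 fold change ran from -0.33 (without sugar diet replicate 3) to 3.32 for *Jon25Bii*, from -1.13 (without sugar diet replicate 3) to 3.99 for *Jon25Bi*, and from -1.23 (without sugar diet replicate 1; -0.44 without control diet replicate 3) to 1.05 for *Jon44E*. In the joint setting it was -2.06 for *Jon25Bi*. The median log2 fold change was 4.75 with at least 10 counts in 3 libraries, where only 17 proteases were fitted, and ran from 3.19 to 5.22 with 1 library left out. Detection in every control library was 0 genes at a minimum of 10 counts, 4 with unstranded counts and 2 to 5 with 1 control library left out. Over all genes the 2067 calls became 1443 to 2532 with 1 library left out and 1242 in the joint setting. Calls among the other serine proteases ran from 2 to 5, with 5 without sugar diet replicate 1. The cause of these shifts was not tested. With the replicate block DESeq2 called 17 proteases and 1842 genes, and edgeR 16 and 1646. Under that block DESeq2 lost the calls for *Jon65Ai* (q = 0.135) and *Jon99Fi* (q = 0.42) and gained *Jon99Ciii* (q = 0.031). Deviations of same-numbered libraries correlated at 0.033, -0.037 and -0.100 over 11486 genes, so the numbers were not taken as pairs. The depth limits the control diet values, which rest on as few as 45 protease counts in a library.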

Other observations

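For *Jon44E* and *Ser8* the opposite strand held more counts than the gene itself. *Jon44E* had 113 opposite-strand counts and 14 sense counts over the 6 libraries, and its exon overlaps *CG8586* on the other strand. *Ser8* had 131 opposite-strand counts and 16 sense counts and lies within the span of *ATP8A* on the other strand. *Jon74E* had 414 sense counts and no annotated overlap, and its opposite-strand counts were 30, 7 and 14 on the control diet and 19, 21 and 24 on the sugar diet. With unstranded counts the call for *Jon99Fi* was lost (DESeq2 q = 0.32).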
